A study of Mus musculus with 6 samples.

Results

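The acute phase and IL-6 response genes of the liver were followed in mice without functional CREB-H (gene symbol Creb3l3) that were given the active form of this factor. The set was a written list of 36 genes: plasma proteins whose synthesis goes up in inflammation (positive reactants), plasma proteins whose synthesis goes down (negative reactants), and components of IL-6 and IL-1 signalling. A gene was taken when the platform annotation gave a probe set to that gene alone, and where a gene had several such probe sets the one of the highest mean signal was used. By this rule 33 of the 36 were found, among 22180 genes with such a probe set: 18 positive reactants, 3 negative reactants, 8 signalling genes, and Saa4, Itih1, Itih2 and Pglyrp2, which were given to none of these classes. Saa1 and Trf lay only on probe sets annotated to another gene as well and were given no value, and Serpina3m was not listed with a probe set. Apart from the mean signal that decides between probe sets of a gene, this rule uses no measured value.

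Livers came from mice of 8 weeks of age, all CREB-H KO (allele Creb3l3tm1.1Sad/J per the labels) and all on normal diet. The mice of the AAV-CREB-H-ΔTC group had received into the peritoneum a liver-targeting adeno-associated virus (AAV) that carries CREB-H-ΔTC, the active form of the factor. Those of the AAV-GFP group had received the same vector type with green fluorescent protein (GFP). There were 3 mice per group, which the labels call biological replicates, and tissue was collected 2 weeks after injection, so both groups share the knockout and exposure to a virus. The sources used here do not give the strain, the sex or the promoter that drives the transgene. Total RNA of each liver was read on 1 array, and every value below is a log2 signal or a difference of log2 signals. Because signals of different probe sets are not on a common scale, levels are compared between arrays. Between genes, a signal is only placed roughly within the range of all signals, for example as dim.

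CREB-H is a transcription factor of the endoplasmic reticulum membrane, made mainly by hepatocytes and small intestine, and its cleavage releases a part that enters the nucleus. In the acute phase response, IL-6 binds its receptor and gp130, JAK kinases phosphorylate STAT3, and STAT3 together with C/EBP factors activates the genes of hepatocyte plasma proteins, while IL-1 and TNF act through NF-kB. Crp and Apcs, the genes of the 2 short pentraxins, have been reported as CREB-H targets in mouse liver, and the comparison asks what the supplied factor does to these genes and to the response around them.

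The supplied gene and the standing of the arrays were examined first. Creb3l3 read 6.73, 7.25 and 7.58 in AAV-CREB-H-ΔTC livers, against 6.55, 5.93 and 6.40 in AAV-GFP livers. All 3 AAV-CREB-H-ΔTC livers were above all 3 AAV-GFP livers, as the labels would have it, with a log2 fold change of 0.89 (SE 0.25; limma adjusted p = 0.647). The probes may read the knockout allele as well as the vector, since their position in the transcript was not examined. Replicate 3 of each group stood apart: the mean signal of Kdm5d, Eif2s3y and Uty, genes of the Y chromosome, was 7.67 in AAV-CREB-H-ΔTC replicate 3 and 7.83 in AAV-GFP replicate 3, and 3.15 to 3.39 on the other 4 arrays. For many of the results that rest on these 2 arrays, values with and without them are therefore given. As a check of the labelled tissue, all 8 hepatocyte markers measured lay between 10.9 and 13.7 on every array, where signals over all probe sets ran up to 13.9. Of all 41345 probe sets, 2 had a limma p, adjusted by Benjamini-Hochberg, under 0.05 (0.00484%).

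Upstream sequence is shown for the genes whose values are described most closely. The mouse promoters of RefSeq (GRCm38.p6) held 28 of the 33 genes, and the 250 bases before each annotated start were searched on both strands for 4 motifs. These were TTCNNNGAA, the element of STAT factors, TTGCNNAA, a core of C/EBP elements, TGACGT, the 6-base core of the cyclic AMP response element that factors of the CREB family bind, and CCACG, the second part of the endoplasmic reticulum stress element. None of the 4 contains another. The STAT element occurred in 4 of the 28 genes (Apcs, Itih4, Socs3 and Steap4), with 7.02% of all 32851 promoters holding it. The C/EBP core occurred in 13 of the 28 (Alb, Cp, Hpx, Il1r1, Itih2, Lcn2, Orm2, Orm3, Pglyrp2, Saa2, Saa3, Saa4 and Steap4), with 9.56% of all promoters holding it. TGACGT was found before Crp, Jak1 and Pglyrp2 (6.47% of all promoters) and CCACG before Cp, Il1r1, Itih3 and Lrg1 (28.3%). Some genes have more than 1 promoter (32 promoters for the 28 genes), and a match of letters describes the sequence only.

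Crp and Apcs are shown as the pentraxin pair, Saa2, Orm2 and Orm3 as positive reactants whose signal varied most between livers, and Itih4 as the positive reactant whose groups did not overlap. Each line gives the 250 bases before the start, 5′ to 3′, with the matched motif in capitals. Crp lies at chr1:172697806-172698055 on the plus strand with TGACGT beginning 102 bases before the start, and Apcs at chr1:172895055-172895304 on the minus strand with the STAT element at 244 bases. Saa2 lies at chr7:46751583-46751832, Orm2 at chr4:63362199-63362448 and Orm3 at chr4:63355908-63356157, all on the plus strand, with the C/EBP core at 183, 120 and 121 bases. Itih4 lies at chr14:30886226-30886475 on the plus strand, with the STAT element at 51 bases.
Crp: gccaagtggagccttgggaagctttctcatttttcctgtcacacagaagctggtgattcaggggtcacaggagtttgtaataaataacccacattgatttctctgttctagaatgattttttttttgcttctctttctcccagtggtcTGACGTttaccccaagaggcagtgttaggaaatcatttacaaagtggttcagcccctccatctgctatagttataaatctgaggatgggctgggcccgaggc
Apcs: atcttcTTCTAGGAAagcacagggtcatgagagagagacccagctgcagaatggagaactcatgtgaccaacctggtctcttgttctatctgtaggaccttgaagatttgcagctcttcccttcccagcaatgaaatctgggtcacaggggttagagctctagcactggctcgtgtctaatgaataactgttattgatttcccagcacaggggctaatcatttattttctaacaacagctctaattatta
Saa2: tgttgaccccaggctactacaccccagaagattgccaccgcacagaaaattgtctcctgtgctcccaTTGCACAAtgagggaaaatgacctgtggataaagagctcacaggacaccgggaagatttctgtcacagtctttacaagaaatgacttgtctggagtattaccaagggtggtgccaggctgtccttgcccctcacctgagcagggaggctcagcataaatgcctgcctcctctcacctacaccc
Orm2: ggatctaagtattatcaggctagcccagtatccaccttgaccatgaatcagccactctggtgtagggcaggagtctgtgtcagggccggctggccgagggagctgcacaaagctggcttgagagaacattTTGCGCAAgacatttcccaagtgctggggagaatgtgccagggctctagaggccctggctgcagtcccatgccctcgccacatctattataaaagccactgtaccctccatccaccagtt
Orm3: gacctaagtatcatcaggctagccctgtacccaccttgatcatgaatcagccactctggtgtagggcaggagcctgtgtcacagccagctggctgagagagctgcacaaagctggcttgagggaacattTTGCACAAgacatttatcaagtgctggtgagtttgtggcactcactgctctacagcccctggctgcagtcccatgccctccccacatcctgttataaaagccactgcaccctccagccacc
Itih4: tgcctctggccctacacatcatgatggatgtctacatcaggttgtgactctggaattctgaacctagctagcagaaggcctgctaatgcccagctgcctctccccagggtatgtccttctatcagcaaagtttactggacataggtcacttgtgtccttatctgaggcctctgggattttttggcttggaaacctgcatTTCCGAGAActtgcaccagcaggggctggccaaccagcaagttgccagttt
The promoters of Orm2 and Orm3 were identical in 219 of 255 aligned columns (85.9%), and their C/EBP cores differ within the 2 free bases. These genes also neighbour each other: in the annotation no protein-coding gene lies between Crp and Apcs, between Orm1 and Orm3, between Orm3 and Orm2, between Saa3 and Saa4, or between Itih4, Itih3 and Itih1.

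No acute phase or IL-6 response gene passed the test between AAV-CREB-H-ΔTC and AAV-GFP livers. By limma, adjusted by Benjamini-Hochberg across the whole array of 41345 probe sets, 0 of the 33 passed, the lowest adjusted p being 0.756. At an unadjusted p under 0.05 there were also 0 of 33, where 6.89% of all probe sets, and 5.73% of the 22180 genes at 1 probe set each, fell below it. Without AAV-CREB-H-ΔTC replicate 2 there were 5 (Itih1, Itih3, Serpina3n, Lbp and Lrg1; 6.25% of all probe sets in that fit) and without AAV-CREB-H-ΔTC replicate 3 there was 1 (Il1rn; 7.18% of all probe sets), none of them past the adjusted threshold. Of the 33 genes, 20 were higher and 13 lower with CREB-H-ΔTC, where 46.3% of all probe sets and 50.8% of the 22180 genes were higher. The median log2 fold change of the 33 was 0.07, against -0.01 over all probe sets and 0.003 over the 22180 genes, and that of the 33 was -0.03 without AAV-CREB-H-ΔTC replicate 2 and -0.01 without AAV-GFP replicate 3. In 2 genes, Itih4 and Jak1, all 3 AAV-CREB-H-ΔTC arrays lay above all 3 AAV-GFP arrays, as did 5.23% of all probe sets and 6.25% of the 22180 genes. In 0 of 33 did they all lie below, as did 7.1% of all probe sets and 6.01% of the 22180 genes. Under quantile normalization 1 gene had groups without overlap, and after median centring 3 did. The shares of all probe sets without overlap in these settings are not given here, so these counts are not a result about the 33 genes. The standard errors (SE) of the 33 genes ran from 0.09 to 1.21 with a median of 0.18, so that the width of the intervals differs greatly between them.

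**Figure D1:**
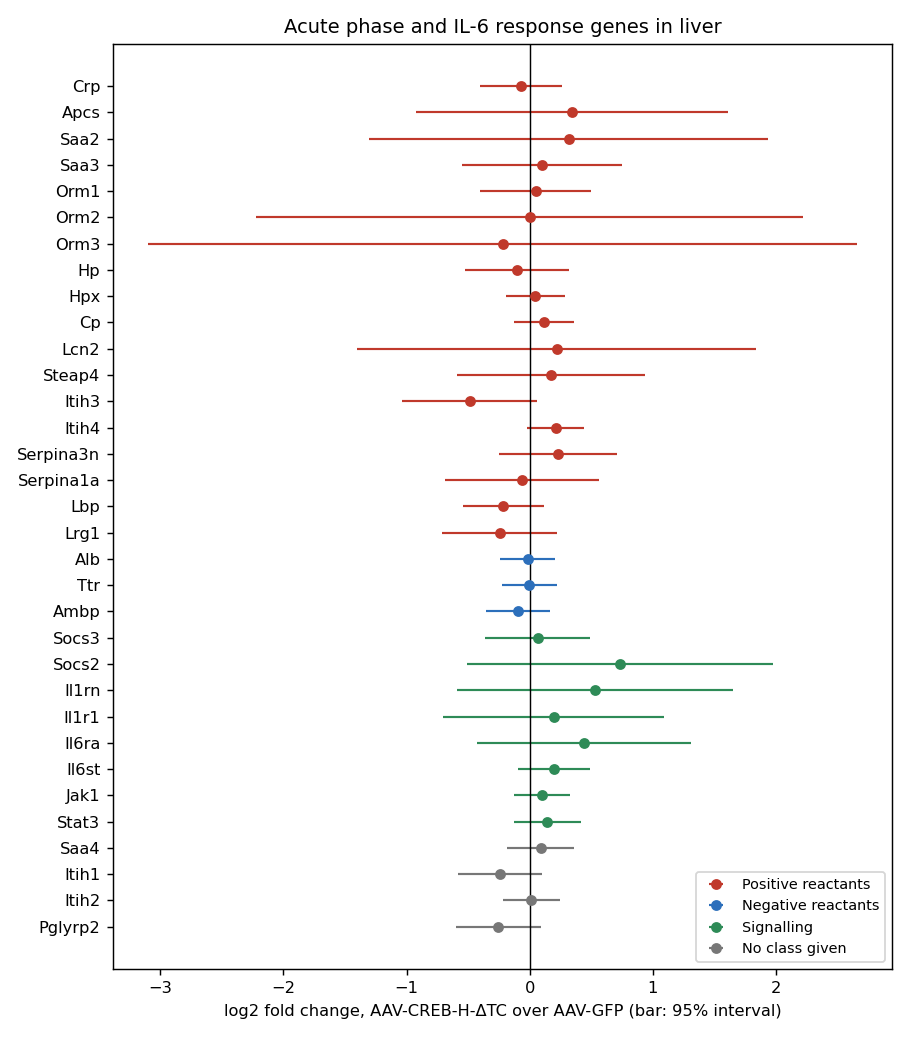
Log2 fold change of AAV-CREB-H-ΔTC over AAV-GFP livers for the 33 genes (points, 3 arrays per group) with 95% intervals from the limma fit (bars), coloured by class. All 33 intervals include 0, and the widest are those of Orm3 (-3.10 to 2.66) and Orm2 (-2.22 to 2.22).

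The pentraxins are pattern-binding proteins of plasma that recognise microbes and dead cells, and in the mouse Apcs (serum amyloid P) responds more strongly in inflammation than Crp (C-reactive protein). Crp read 12.23, 11.97 and 12.04 in AAV-CREB-H-ΔTC livers, against 12.22, 12.32 and 11.93 in AAV-GFP livers. The groups overlapped and all 6 arrays lay close together; the log2 fold change was -0.07 (SE 0.14, 95% interval -0.40 to 0.26, limma adjusted p = 0.953). Apcs read 8.49, 10.20 and 8.26 in AAV-CREB-H-ΔTC livers, against 8.82, 9.07 and 8.03 in AAV-GFP livers. One liver, AAV-CREB-H-ΔTC replicate 2, stood above the rest and the groups overlapped; the log2 fold change was 0.34 (SE 0.53, interval -0.92 to 1.61), and -0.26 without that array. Crp was 0.01 without AAV-GFP replicate 2, so that neither pentraxin kept its direction when each array was left out in turn.

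The serum amyloid A proteins are carried on high-density lipoprotein; Saa2 and Saa3 are inducible, whereas Saa4 is made constitutively. Saa2 read 8.33, 8.42 and 7.86 in AAV-CREB-H-ΔTC livers, against 7.95, 9.35 and 6.35 in AAV-GFP livers. The AAV-GFP livers spread over a wider range and enclosed all 3 AAV-CREB-H-ΔTC livers. The log2 fold change was 0.32 (SE 0.68, interval -1.30 to 1.94), with -0.28 on the 4 arrays lacking Y-linked signal and 1.51 from the single pair that carries it. Saa1, the near-identical neighbour gene, has no value here, and how far the Saa2 probe set separates the 2 transcripts was not examined. Saa3, which in the mouse is also made by macrophages, read 7.01, 7.80 and 7.46 in AAV-CREB-H-ΔTC livers, against 6.95, 7.79 and 7.24 in AAV-GFP livers (log2 fold change 0.10, SE 0.27, and -0.09 without AAV-GFP replicate 1). Saa4 read 12.73, 12.99 and 12.92 in AAV-CREB-H-ΔTC livers, against 12.80, 12.89 and 12.69 in AAV-GFP livers (0.09, SE 0.12). In both Saa3 and Saa4 the groups overlapped.

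The orosomucoids, or alpha-1 acid glycoproteins, are abundant acute phase glycoproteins that bind basic drugs and lipids. Orm1 read 11.55, 11.90 and 11.25 in AAV-CREB-H-ΔTC livers, against 11.73, 11.49 and 11.34 in AAV-GFP livers (log2 fold change 0.05, SE 0.19). Orm2 read 9.53, 10.02 and 6.95 in AAV-CREB-H-ΔTC livers, against 9.94, 9.17 and 7.39 in AAV-GFP livers. Orm3 read 7.76, 8.34 and 4.54 in AAV-CREB-H-ΔTC livers, against 8.60, 7.61 and 5.08 in AAV-GFP livers. In all 3 genes replicate 3 of both groups, the arrays with Y-linked signal, was lower than the other 4 arrays, and the groups overlapped. The difference of replicate 3 from the mean of replicates 1 and 2 of its own group was -3.51 with CREB-H-ΔTC and -3.02 with GFP in Orm3, and -2.83 with CREB-H-ΔTC and -2.16 with GFP in Orm2. In Orm1 the same differences were -0.48 with CREB-H-ΔTC and -0.27 with GFP. Between the groups, the log2 fold change was 0.00 (SE 0.93) for Orm2 and -0.22 (SE 1.21) for Orm3. On the 4 arrays without Y-linked signal these were 0.22 and -0.06, and between the 2 arrays with it -0.45 and -0.54. The 3 genes are close paralogs, and cross-hybridisation between their probe sets was not examined.

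**Figure D2:**
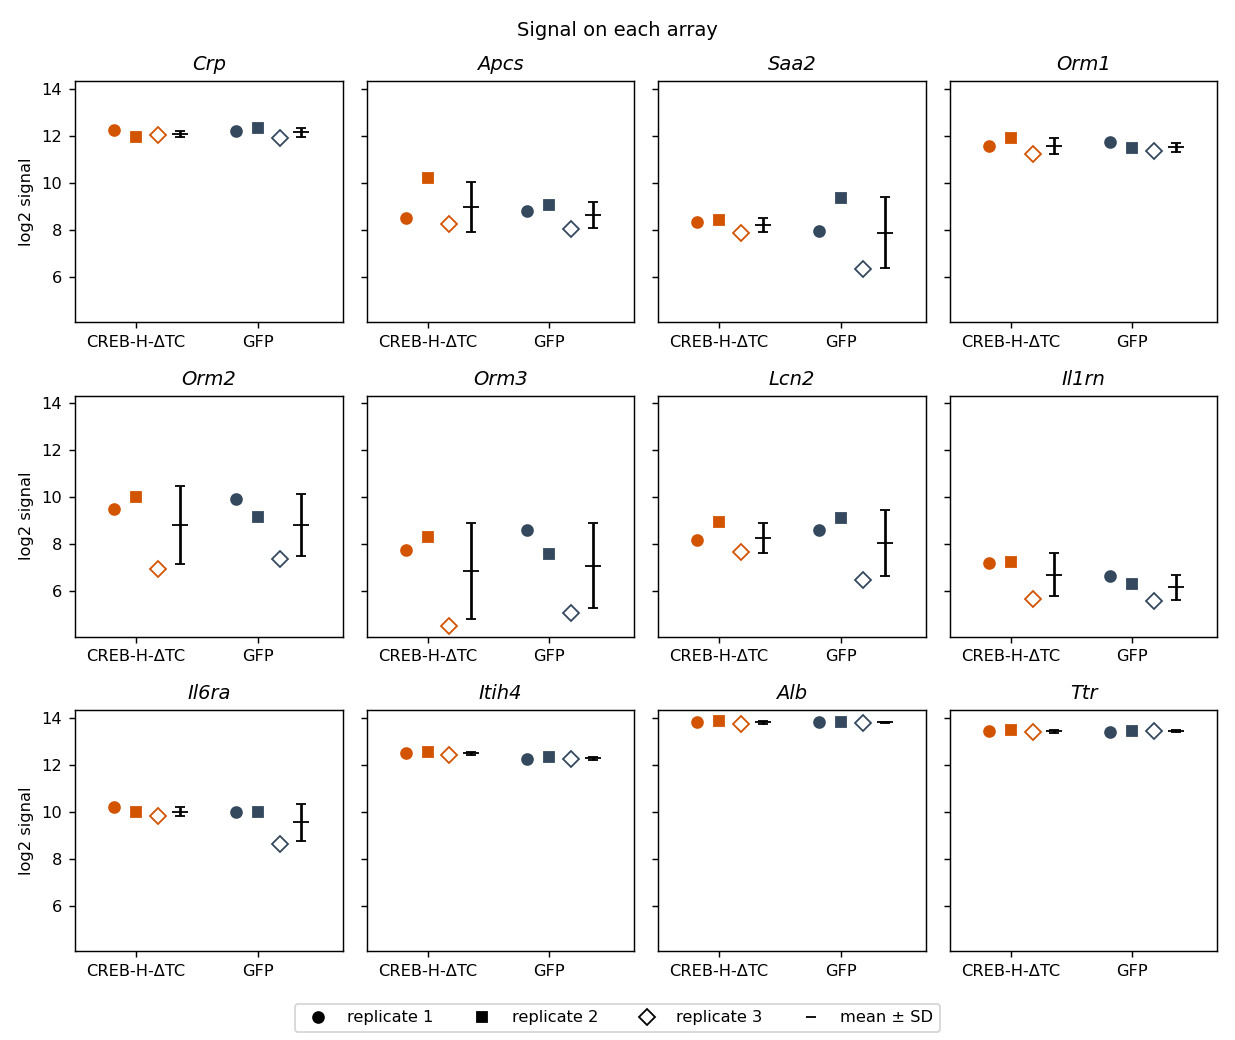
Log2 signal on each of the 6 arrays for 12 of the genes, with AAV-CREB-H-ΔTC at the left and AAV-GFP at the right of each panel; symbols give the replicate, open diamonds mark the arrays with Y-linked signal (replicate 3), and bars give the mean ± SD (n = 3). In Orm2 and Orm3 the open diamonds of both groups lie far below the other points, at 6.95 and 4.54 with CREB-H-ΔTC and at 7.39 and 5.08 with GFP, while Alb and Ttr vary little over all arrays.

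Haptoglobin (Hp) binds free haemoglobin, haemopexin (Hpx) binds haem, and ceruloplasmin (Cp) is the copper-carrying ferroxidase of plasma. For none of these was the difference between the groups larger than the spread of the livers allows for in the limma test. The log2 fold change was -0.10 (SE 0.18) for Hp, 0.05 (SE 0.10) for Hpx and 0.12 (SE 0.10) for Cp. Hp was lowest in AAV-CREB-H-ΔTC replicate 1, at 12.23 against 12.69 to 12.82 on the other arrays, and its log2 fold change was 0.09 without that array. Lcn2, the gene of lipocalin 2, which withholds iron from bacteria by binding siderophores, read 8.20, 8.95 and 7.69 in AAV-CREB-H-ΔTC livers, against 8.60, 9.11 and 6.48 in AAV-GFP livers. Replicate 3 was the lowest liver of each group, and the groups overlapped. The log2 fold change of Lcn2 was 0.22 (SE 0.68), with -0.28 on the 4 arrays lacking Y-linked signal and 1.21 between the 2 with it. Steap4, a metalloreductase, had 0.17 (SE 0.32), and -0.08 without AAV-GFP replicate 3.

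Among the protease inhibitors, the neighbouring genes Itih3 and Itih4 stood furthest from 0 relative to their errors, on opposite sides. The inter-alpha-trypsin inhibitor heavy chains bind hyaluronan, and ITIH4 is a plasma kallikrein substrate. Itih4 read 12.51, 12.56 and 12.42 in AAV-CREB-H-ΔTC livers, against 12.24, 12.33 and 12.27 in AAV-GFP livers. The groups did not overlap, by a small margin. Its log2 fold change of 0.21 (SE 0.10, interval -0.02 to 0.44) had the lowest limma adjusted p among the 33 genes (0.756), and it ran from 0.18 to 0.25 over all alternatives. Itih3 read 10.70, 11.04 and 10.15 in AAV-CREB-H-ΔTC livers, against 10.96, 11.29 and 11.09 in AAV-GFP livers. Here 2 of the AAV-CREB-H-ΔTC livers lay below all AAV-GFP livers and the other lay within them, with a log2 fold change of -0.49 (SE 0.23, interval -1.03 to 0.06, limma adjusted p = 0.769) and -0.25 without AAV-CREB-H-ΔTC replicate 3. Itih1 had -0.24 (SE 0.14) and Itih2 0.01 (SE 0.10).

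The serine protease inhibitor Serpina3n, a marked IL-6 target in mouse liver, read 12.53, 12.18 and 12.99 in AAV-CREB-H-ΔTC livers, against 12.36, 12.33 and 12.30 in AAV-GFP livers. The AAV-CREB-H-ΔTC livers lay on both sides of the tightly grouped AAV-GFP livers (log2 fold change 0.23, SE 0.20; 0.00 on the 4 arrays lacking Y-linked signal and 0.69 between the 2 with it). Serpina1a, one of the alpha-1 antitrypsin paralogs of the mouse, had -0.06 (SE 0.26) and turned positive when any of 3 arrays was left out. The lipopolysaccharide-binding protein gene Lbp had -0.21 (SE 0.14), the leucine-rich glycoprotein gene Lrg1 -0.24 (SE 0.20), and the peptidoglycan amidase gene Pglyrp2 -0.25 (SE 0.14). These 3 kept their sign under all alternatives and did not pass in any, though Lrg1 was -0.0005 on the 4 arrays lacking Y-linked signal and -0.73 between the 2 with it.

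**Figure D3:**
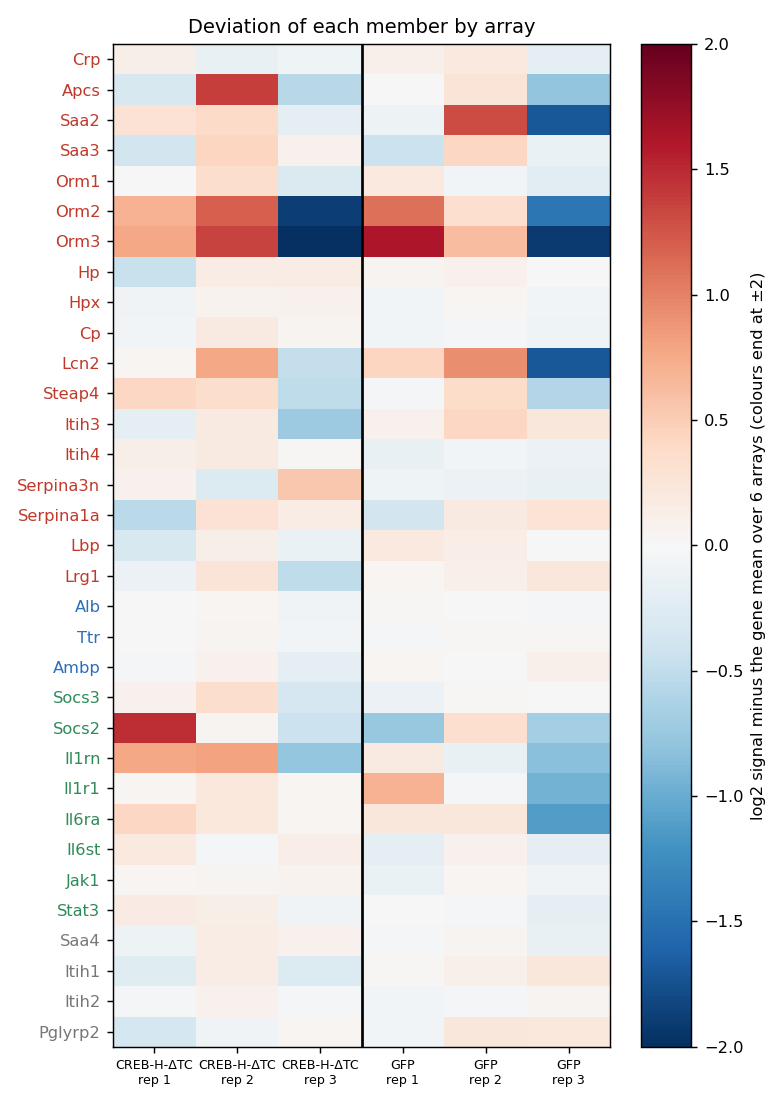
Log2 signal of each of the 33 genes on each array minus the gene's mean over the 6 arrays (red above, blue below, colours end at 2), with the AAV-CREB-H-ΔTC arrays left of the line and the AAV-GFP arrays right of it; name colours give the class as in the plot of fold changes. The strongest blue lies in replicate 3 of both groups (Orm2, Orm3) and of AAV-GFP (Saa2, Lcn2), and no block of colour separates the groups.

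Of the signalling genes 8 of 8 were higher with CREB-H-ΔTC, where 50.8% of the 22180 genes at 1 probe set each were higher. Their median log2 fold change was 0.20, and none of these signalling genes passed the test. These cover the IL-6 receptor chain Il6ra and its partner gp130 (Il6st), the kinase Jak1 and the transcription factor Stat3. They also cover Socs2 and Socs3, feedback inhibitors that cytokine receptors induce through STAT factors, the IL-1 receptor Il1r1, and its natural antagonist Il1rn. Jak1 read 9.94, 9.95 and 9.96 in AAV-CREB-H-ΔTC livers, against 9.77, 9.93 and 9.84 in AAV-GFP livers. Its groups did not overlap, but the gap was narrow, and the log2 fold change was 0.10 (SE 0.10, limma adjusted p = 0.891). The exact two-sided permutation p over the 6 arrays was 0.1 for Jak1 and for Itih4, which is the smallest that 3 against 3 arrays can give. Il6st had 0.20 (SE 0.12) and Stat3 0.14 (SE 0.11), both positive under all alternatives.

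Il6ra read 10.20, 9.99 and 9.82 in AAV-CREB-H-ΔTC livers, against 10.01, 10.02 and 8.66 in AAV-GFP livers. Il1r1 read 10.38, 10.56 and 10.38 in AAV-CREB-H-ΔTC livers, against 11.04, 10.30 and 9.39 in AAV-GFP livers. In both receptors AAV-GFP replicate 3 was the lowest array. The log2 fold changes of 0.44 (SE 0.37) for Il6ra and 0.19 (SE 0.38) for Il1r1 were -0.01 and -0.23 without it. Il1rn read 7.22, 7.26 and 5.67 in AAV-CREB-H-ΔTC livers, against 6.64, 6.31 and 5.61 in AAV-GFP livers. Replicate 3 was lowest in each group, and within replicates 1 and 2 both AAV-CREB-H-ΔTC livers were above both AAV-GFP livers. The log2 fold change of Il1rn was 0.53 (SE 0.47, limma adjusted p = 0.885), with 0.77 on the 4 arrays lacking Y-linked signal and 0.06 between the 2 with it.

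Socs2, which in liver restrains growth hormone signalling, read 9.42, 7.99 and 7.50 in AAV-CREB-H-ΔTC livers, against 7.18, 8.27 and 7.26 in AAV-GFP livers. One liver, AAV-CREB-H-ΔTC replicate 1, stood well above the rest, and the groups overlapped. The log2 fold change of 0.73 (SE 0.52) was the highest of the 33 genes and was 0.18 without that array. The second probe set of Socs2 was also highest on that array (6.98, against 5.54 to 5.89 on the other 5), with 0.55 (SE 0.32). Socs3, the main feedback inhibitor of IL-6 signalling, had 0.07 (SE 0.18), and 0.05 (SE 0.11) on its second probe set. On the first it was -0.09 without AAV-CREB-H-ΔTC replicate 2. On the 4 arrays lacking Y-linked signal it was 0.27, and between the 2 with it -0.33. On the second probe set the differences with the same split were 0.13 and -0.12. The count of 8 higher became 7 on the 4 arrays lacking Y-linked signal (median 0.15), 7 without AAV-CREB-H-ΔTC replicate 2 and 6 without AAV-GFP replicate 3. The median was 0.36 without AAV-GFP replicate 1 and 0.09 without AAV-GFP replicate 3. The mean deviation of the 8 genes from their gene means was 0.40, 0.22 and -0.17 in AAV-CREB-H-ΔTC livers. In AAV-GFP livers it was -0.01, 0.06 and -0.50, and the groups overlapped.

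The negative reactants, carrier proteins whose hepatic synthesis is lowered in inflammation, varied little between livers. Alb, the albumin gene, read 13.82, 13.87 and 13.76 in AAV-CREB-H-ΔTC livers, against 13.85, 13.84 and 13.81 in AAV-GFP livers. Ttr, the gene of transthyretin, the carrier of thyroxine and of retinol-binding protein, read 13.43, 13.50 and 13.39 in AAV-CREB-H-ΔTC livers, against 13.40, 13.47 and 13.46 in AAV-GFP livers. The 6 livers lay within a narrow band in both genes, and the groups overlapped. Ambp, the precursor of alpha-1-microglobulin and bikunin, read 12.33, 12.46 and 12.19 in AAV-CREB-H-ΔTC livers, against 12.41, 12.38 and 12.47 in AAV-GFP livers. The log2 fold changes were -0.02 (SE 0.09, interval -0.24 to 0.20), 0.00 (SE 0.09, -0.23 to 0.22) and -0.09 (SE 0.11, -0.35 to 0.17) in that order. Signals of Alb and Ttr lay near the highest on the arrays, where saturation can narrow differences, and detection or saturation calls were not examined here.

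The positive reactants were then set beside the negative ones. Of the 18 positive reactants 10 were higher and 8 lower with CREB-H-ΔTC (median log2 fold change 0.05, range -0.49 to 0.34), and of the 3 negative reactants 0 were higher and 3 lower (median -0.02, range -0.09 to 0.00). These directions depend on scaling in part, since after median centring Orm2 was 0.02, Alb 0.0007 and Ttr 0.02, and under quantile normalization Ttr was 0.03. The background of both counts is the 46.3% of all probe sets, and the 50.8% of the 22180 genes at 1 probe set each, that were higher. The median of the positive reactants was 0.00 on the 4 arrays lacking Y-linked signal, -0.0051 with array weights, -0.12 without AAV-CREB-H-ΔTC replicate 2 and -0.10 without AAV-GFP replicate 3. That of the negative reactants was 0.0025 on the same 4 arrays, 0.0007 after median centring and 0.01 without AAV-CREB-H-ΔTC replicate 3. As a score per liver, the mean deviation of the positive reactants from their gene means, minus that of the negative ones, was 0.03, 0.33 and -0.27 in AAV-CREB-H-ΔTC livers, against 0.13, 0.27 and -0.49 in AAV-GFP livers. Replicate 3 was the lowest liver of each group on this score, and the groups overlapped almost fully. Their means differed by 0.06, with an SD of 0.30 among AAV-CREB-H-ΔTC livers and 0.41 among AAV-GFP livers.

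**Figure D4:**
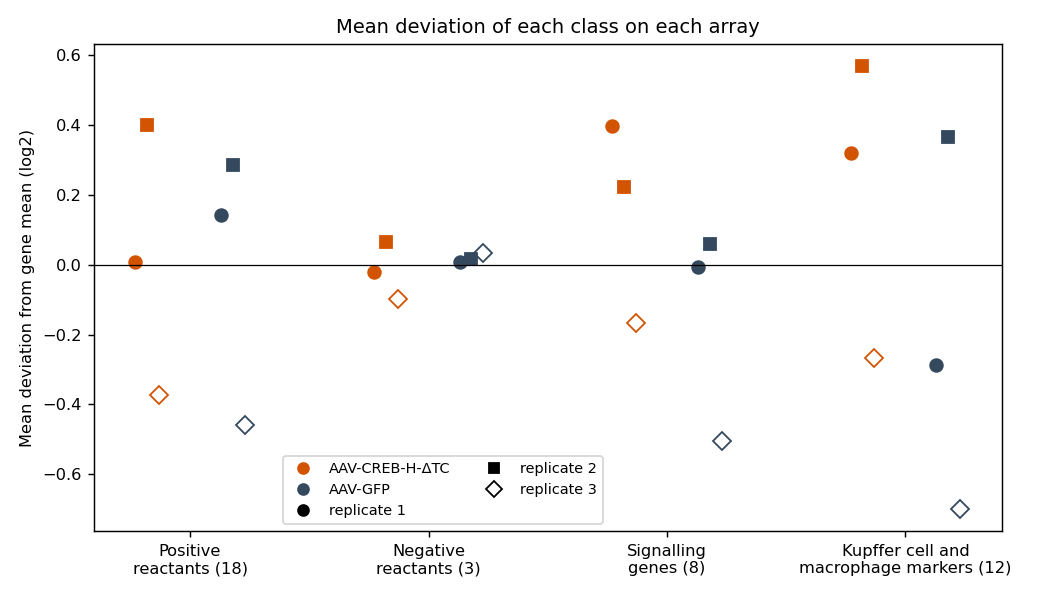
Mean deviation of log2 signal from the gene mean for each class on each array (number of genes in brackets), AAV-CREB-H-ΔTC at the left and AAV-GFP at the right of each class, with open diamonds for replicate 3. The positive reactants lie at -0.37 in AAV-CREB-H-ΔTC replicate 3 and -0.46 in AAV-GFP replicate 3, the negative reactants stay between -0.10 and 0.06, and the macrophage markers are also lowest in replicate 3 within AAV-GFP and within AAV-CREB-H-ΔTC.

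The difference between livers that recurred in these genes ran along the arrays with Y-linked signal, within each group. In 11 of the 33 genes both of these arrays lay below the other 4, where 8.79% of all probe sets and 10.3% of the 22180 genes did so. In 0 of 33 did both lie above, where 10.2% of all probe sets and 10.8% of the 22180 genes did so. The 11 were the positive reactants Apcs, Saa2, Orm1, Orm2, Orm3, Lcn2 and Steap4, the signalling genes Il1rn, Il6ra and Stat3, and the negative reactant Alb, by -0.08 with CREB-H-ΔTC and -0.04 with GFP. Among the 11, and apart from the orosomucoids, the widest gaps from replicates 1 and 2 of the same group were in Lcn2 (-0.88 with CREB-H-ΔTC and -2.37 with GFP), Saa2 (-0.52 and -2.30 in the same order) and Il1rn (-1.57 and -0.86). Averaged over the 11, the deviation was 0.29, 0.63 and -0.66 in AAV-CREB-H-ΔTC livers, against 0.33, 0.35 and -0.95 in AAV-GFP livers. Averaged over the other 22 genes, the deviation stayed between -0.06 and 0.11 on all arrays, though single genes among them, such as Socs2, varied more. These 11 were picked by the ranking itself, so the averages describe it and test nothing. The 2 arrays share Y-linked signal and a replicate number, and what else they share cannot be told apart from these.

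**Figure D5:**
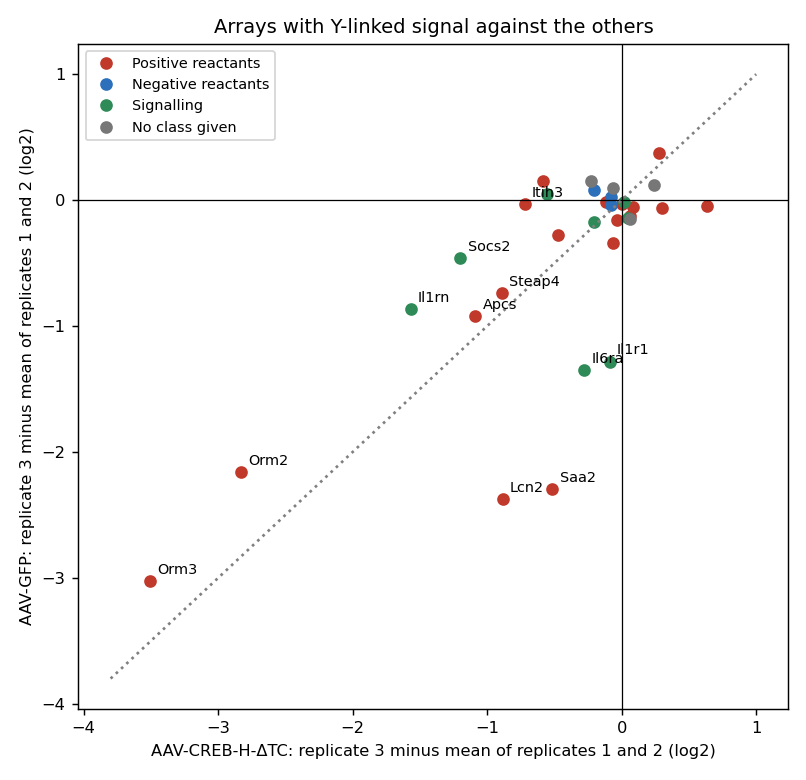
Log2 signal of replicate 3 (the array with Y-linked signal) minus the mean of replicates 1 and 2, within AAV-CREB-H-ΔTC (horizontal axis) and within AAV-GFP (vertical axis), 1 point per gene, coloured by class; the dotted line marks equal differences. Orm3 (-3.51 and -3.02) and Orm2 (-2.83 and -2.16) lie near that line, whereas Lcn2 and Saa2 were lower by more than 2 within AAV-GFP only.

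Genes of the same pathways outside the 33 were taken from written lists. Of 22 other positive acute phase genes 12 were higher and 10 lower (median 0.05), of 11 other negative ones 5 were higher and 6 lower (median -0.01), and 0 passed in either. The negative ones with the lowest p were the retinol carrier gene Rbp4 (log2 fold change 0.15, SE 0.10), Igfals (-0.38, SE 0.26), whose protein stabilises circulating insulin-like growth factors, and the histidine-rich glycoprotein gene Hrg (-0.11, SE 0.09). All AAV-CREB-H-ΔTC livers lay below all AAV-GFP livers in Hrg, and above them in the fetuin gene Ahsg (0.08, SE 0.09), named after its values were seen. Over the 22180 genes at 1 probe set each, 6.01% lay below and 6.25% above in this way. Igfals was 0.02 on the 4 arrays lacking Y-linked signal and -1.19 between the 2 with it. The lowest unadjusted p among the positive ones belonged to the complement gene C4b (log2 fold change -0.27, SE 0.14) and to the metallothioneins Mt2 (2.09, SE 1.42) and Mt1 (1.29, SE 0.89), which bind zinc and copper. Mt1 read 11.79, 11.85 and 11.65 in AAV-CREB-H-ΔTC livers, against 11.69, 11.57 and 8.16 in AAV-GFP livers, so that AAV-GFP replicate 3 was far below the other 5, and Mt2 had the same pattern. Among the 4 arrays lacking Y-linked signal the differences were 0.19 for Mt1 and 0.31 for Mt2. In 5 of these 22 genes both arrays with Y-linked signal lay below the other 4, and in 3 above. Over the 22180 genes 10.3% lay below and 10.8% above in this way.

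Among 24 other genes of the IL-6 family and STAT3 pathway, 13 were higher and 11 lower with CREB-H-ΔTC (median 0.09), and 0 passed. The interferon-regulatory factor gene Irf1 had 0.48 (SE 0.16, limma adjusted p = 0.686), the kinase Jak2 0.36 (SE 0.13, adjusted p = 0.699) and the transcription factor Stat5b 0.31 (SE 0.14, adjusted p = 0.74). In these 3 genes all AAV-CREB-H-ΔTC livers lay above all AAV-GFP livers, and in 2 others of the list, named after their values were seen, all lay below: the phosphatase Ptpn11 (-0.16, SE 0.10) and the dim cytokine Il6 (-0.20, SE 0.12; 2.47 to 2.93 on all arrays). Among 23 other genes of IL-1, TNF and NF-kB signalling, 13 were higher and 10 lower (median 0.04), and 0 passed. The adaptor of IL-1 and Toll-like receptors, Myd88, read 7.66, 7.81 and 7.37 in AAV-CREB-H-ΔTC livers, against 8.15, 7.86 and 8.07 in AAV-GFP livers. All its AAV-CREB-H-ΔTC livers were below the AAV-GFP livers (log2 fold change -0.41, SE 0.15, adjusted p = 0.693). The receptor-associated kinase Irak1 had 0.23 (SE 0.12), with all AAV-CREB-H-ΔTC livers above the AAV-GFP livers, and the cytokine Il1b -0.84 (SE 0.42). The NF-kB subunit Rela, named after its values were seen, had -0.17 (SE 0.09), with all AAV-CREB-H-ΔTC livers below the AAV-GFP livers. Groups without overlap thus numbered 3 above and 2 below among the 24 genes, and 1 above and 2 below among the 23. Over the 22180 genes at 1 probe set each, 6.25% lay above and 6.01% below in this way. In 7 of the 24 genes both arrays with Y-linked signal lay below the other 4, and in 1 above. Among the 23 genes these counts were 3 and 3, where 10.3% of the 22180 genes lay below and 10.8% above. The counts were not tested against these shares.

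Markers of other liver cells are given beside these values. All 12 Kupffer cell and macrophage markers were higher with CREB-H-ΔTC (median log2 fold change 0.40, 0.27 to 0.60). Over the 22180 genes at 1 probe set each, 50.8% were higher. Of the 12 markers 0 passed the test (lowest limma adjusted p 0.725, Cd68), and 11 were higher on the 4 arrays lacking Y-linked signal. Their summed linear signal was 6399, 7563 and 4284 in AAV-CREB-H-ΔTC livers, against 4170, 6343 and 3268 in AAV-GFP livers. Replicate 3 was again the lowest of each group, and in 6 of the 12 markers both arrays with Y-linked signal lay below the other 4. Over the 22180 genes 10.3% did so. Neutrophil markers were dim on all arrays (2.85 to 5.41), with 4 of 10 higher and 6 lower (median -0.07). The granulocyte gene Retnlg, at 3.16 to 4.04 on all arrays, was among the 4 higher ones (log2 fold change 0.64, SE 0.13, limma adjusted p = 0.613). Of 7 T and B cell markers 5 were higher (median 0.04), with signals of 4.02 to 6.07 on all arrays. The B cell genes Cd79a (0.57, SE 0.18, limma adjusted p = 0.647) and Ms4a1 (0.38, SE 0.15, adjusted p = 0.715) were among them. In both, all AAV-CREB-H-ΔTC livers lay above all AAV-GFP livers. On the 4 arrays lacking Y-linked signal Cd79a was 0.73 and Ms4a1 0.57, and between the 2 with it 0.25 and 0.001. Higher with CREB-H-ΔTC were 6 of 8 endothelial markers (median 0.14), 6 of 8 stellate cell markers (median 0.15) and 4 of 5 cholangiocyte markers (median 0.25), and 0 passed. On the 4 arrays lacking Y-linked signal 7 stellate cell markers were higher (median 0.20), but between the 2 with it 3 were (median -0.21). In the same order, 6 and 5 endothelial and 4 and 4 cholangiocyte markers were higher. In these 3 lists, all AAV-CREB-H-ΔTC livers lay above all AAV-GFP livers in Pdgfrb and Krt19 and below them in Sox9. The share of the 22180 genes without overlap was 6.25% above and 6.01% below. Il1rn and Saa3 are also made by macrophages, and in a whole liver fewer cells of a type and less RNA per cell cannot be told apart. The part of these markers in the values of the signalling genes, and in the lower values of replicate 3, was not tested.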

How the data were processed

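Expression was measured in liver RNA of 6 mice, 1 array each. The authors deposited log2 signals, 1 per probe set and array, for which the submitters' processing notes name the Transcriptome Analysis Console. The sources used here do not give its version, probe summarisation, background correction or normalization, and that the scale is log2 was read from the range of values. Scanner files were not used here, so no floor on dim signals was set and detection could not be examined. No values were changed before testing. The array medians lay between 4.98 and 5.01, and no pair of arrays held identical values. The number of arrays limits the precision.

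Gene symbols came from the platform annotation: 23521 of 41345 probe sets had 1 symbol, 1814 had several and 16010 were not listed. The Entrez IDs of all 33 genes were found in the reference table of GRCm38.p6 with the same symbol. The test between groups was that of limma 3.58.1 (R 4.3.3; lmFit, then eBayes without the trend and robust options; group alone in the model; two-sided) over all probe sets, with Benjamini-Hochberg adjustment and a threshold of 0.05. SEs and 95% intervals are those of the moderated fit, and a difference is AAV-CREB-H-ΔTC minus AAV-GFP. Arrays with Y-linked signal are those where Kdm5d, Eif2s3y and Uty averaged over 5. Deviations from the group means correlated by 0.08, 0.13 and 0.33 between the same-numbered replicates 1, 2 and 3 of the 2 groups. Between replicate 1 of a group and replicate 2 of the other they were 0.12 and 0.16, so these numbers did not pair. Between a replicate 3 and a replicate 1 or 2 of the other group they ran from -0.23 to -0.16. The 2 replicate 3 arrays thus went together.

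The genes, their classes, the pathway and marker lists, the tests and the alternatives were chosen with earlier results of these data known. Among the 33 genes, values on every array are given for the pentraxin, serum amyloid A and orosomucoid families, the negative reactants, genes whose groups do not overlap and genes with an SD over 0.75 in a group, with a few added where 1 array decides a value, chosen after their values were seen. Of each of the 4 pathway lists the 3 genes with the lowest p are named. Medians and counts of lists are descriptions without a test.

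The alternatives were quantile normalization, median centring of arrays, filters that drop the dimmest 25% or 50%, limma-trend (plain and robust), weights per array, a block for the replicate number, 1 probe set per gene, averaging the probe sets of a gene, a term for Y-linked signal, the 4 arrays without it, and each array left out in turn. Data were also simulated for 41345 probe sets, with 50 changed by each size. The changed ones were drawn from probe sets brighter than the median, and the noise was independent between arrays. A shift shared by replicate 3 of both groups was therefore not simulated. There limma recovered 0% of those changed by 0.5 (log2), 44% for a change of 1, 88% for 2 and 98% for 4. It made 5 false calls. Motifs were searched and figures drawn in Python 3.11.15 with biopython 1.88 and matplotlib 3.10.9.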

Additional observations from a re-analysis of the deposited data

How the results depend on the processing

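None of the 33 genes reached an adjusted p under 0.05 in any of the 18 alternatives, where the lowest limma adjusted p was 0.53, and 15 of 33 kept their sign in all of them. The cause of the sign changes below was not tested. Ttr was 0.026 under quantile normalization, and Orm2, Alb and Ttr were 0.017, 0.0007 and 0.016 after median centring. Saa3, Orm2 and Lcn2 were -0.026, 0.078 and -0.026 with array weights. On the 4 arrays without Y-linked signal, Saa2 was -0.28, Orm2 0.22, Lcn2 -0.28, Il1r1 -0.20, Ttr 0.032 and Ambp 0.0025. With 1 array left out, 17 genes turned sign: Crp ran from -0.19 to 0.0081, Apcs from -0.26 to 0.71, Saa2 from -0.45 to 1.05, Saa3 from -0.088 to 0.33, Orm1 from -0.12 to 0.21, Orm2 from -0.72 to 0.94, Orm3 from -1.23 to 0.95, Hp from -0.20 to 0.095, and Lcn2 from -0.57 to 0.74. Steap4 ran from -0.077 to 0.47, Itih2 from -0.027 to 0.045, Serpina1a from -0.26 to 0.19, Socs3 from -0.091 to 0.25, Il1r1 from -0.23 to 0.59, Il6ra from -0.0061 to 0.67, Alb from -0.042 to 0.011, and Ttr from -0.033 to 0.024. A fit that leaves out replicate 3 of 1 group keeps Y-linked signal in the other group only. The number of genes with an unadjusted p under 0.05 was 1 under quantile normalization, limma-trend and robust limma-trend (Itih4 in each), 1 on the 4 arrays without Y-linked signal (Il1rn), 2 with a term for that signal and 2 with the replicate block (Itih3 and Il1rn in both), and 0 to 5 with 1 array left out. In these and the other fits 5.65% to 8.57% of all features tested fell below it. The replicate block ended both calls among all probe sets, and the genes described here had 0 with or without it. Genes without overlap between the groups numbered 1 under quantile normalization and 3 after median centring. They numbered 7 on the 4 arrays without Y-linked signal and 3 to 9 with 1 array left out. Fewer arrays make overlap rarer, and the share of all probe sets without overlap in these settings is not given here. These counts are therefore not a result about the 33 genes. The median of the positive reactants ran from -0.12 to 0.14, that of the negative from -0.04 to 0.01 and that of the signalling genes from 0.09 to 0.36 over all alternatives. Signals near the top of the range, such as Alb and Ttr, and dim ones may understate differences.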
